A study of Mus musculus with 13 samples.

Results

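Transcripts of 9 genes that take up, move, store and release iron were followed in isolated mouse glomeruli after injection of an antibody against THSD7A, a podocyte membrane protein. The genes were chosen by name, from their known role in iron handling. The rule did not use their values, but earlier results of these data were known when they were chosen. They were *Tfrc*, *Steap3*, *Slc11a2*, *Fth1*, *Ftl1*, *Ncoa4*, *Slc40a1*, *Aco1* and *Ireb2*, 9 of the 35967 gene symbols in the deposited table. All 9 reached 1 TPM in 4 or more of the 13 libraries, the filter on low values, and were tested among 14322 genes.

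The animals were wild-type Balb/c mice by their labels. The study's methods state that only male mice entered the membranous nephropathy (MN) experiments, and give an age of 14 to 15 weeks at induction for the knockout lines of the study and their littermates, not for these animals by name. Control mice (n = 5) received 2 mg of rabbit preimmune IgG into the peritoneal cavity. MN mice received 2 mg of rabbit anti-THSD7A IgG and were killed at day 1 (n = 4) or day 5 (n = 4), with 1 library per mouse. Control mice of both days form a single group, and the day of each is not given in the sources used here. The model is a passive transfer of a foreign antibody into mice that carry no transgene, and glomeruli were pulled out with magnetic beads, so other parts of the kidney can travel with them.

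Iron enters most cells bound to transferrin through the transferrin receptor, is reduced and exported from the endosome, and is then used, stored in ferritin or released again through ferroportin. The balance is set after transcription. The iron regulatory proteins encoded by *Aco1* and *Ireb2* bind hairpins called iron-responsive elements (IREs) in messenger RNAs when iron is scarce. A bound IRE in the 5′ UTR blocks translation, as in ferritin and ferroportin messages, and bound IREs in the 3′ UTR protect the *Tfrc* message from decay. In the kidney, filtered transferrin is reclaimed mainly by the proximal tubule, and tubule cells express many of these genes.

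The hairpins are shown for their place in a message. Through those in a 3′ UTR iron can change the level of a message, and through those in a 5′ UTR its translation. UTRs of GENCODE transcripts (GRCm39) were searched on the coding strand for a C, then 5 bases, the loop CAGTGN and 5 more bases, where the 5 bases on either side of the loop had to pair (G-T pairs allowed). Capitals mark the loop. *Tfrc* carried 4 matches, all in its 3′ UTR on the plus strand of chromosome 16.

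*Tfrc*, chr16:32450043-32450059: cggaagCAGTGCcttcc
*Tfrc*, chr16:32450422-32450438: cgggagCAGTGTcttcc
*Tfrc*, chr16:32450487-32450503: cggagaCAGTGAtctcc
*Tfrc*, chr16:32450534-32450550: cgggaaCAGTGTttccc

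*Fth1* (plus strand), *Ftl1* (minus strand) and *Slc40a1* (minus strand) carried 1 match each, all in the 5′ UTR.

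*Fth1*, chr19:9960102-9960118: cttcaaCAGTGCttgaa
*Ftl1*, chr7:45109209-45109225: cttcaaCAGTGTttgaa
*Slc40a1*, chr1:45964631-45964647: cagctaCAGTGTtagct

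Of all genes with an annotated 5′ UTR, 47 of 20771 (0.226%) held such a match, and for 3′ UTRs the number was 163 of 20919 (0.779%). The other 5 members held no match to this pattern in either UTR. *Epas1* and *Cdc14a*, listed here among other IRE messages, held none either. The search can thus miss IREs of another form. A lack of a match does not show that *Slc11a2* or another member has no IRE. A match is a description of the letters and was not tested for binding.

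The members spanned a wide range of abundance. TPM is corrected for transcript length, so levels can be compared between genes. In control glomeruli the ferritin chains led, with 2352 ± 133 TPM (SD, n = 5) for *Ftl1*, the light chain, and 1760 ± 167 (SD, n = 5) for *Fth1*, the heavy chain that oxidises iron. They stood at the 99.8 and 99.7 percentiles of the tested genes. *Ncoa4*, the receptor that carries ferritin to the lysosome, followed with 87.7 ± 4.09 (SD, n = 5). *Steap3*, the endosomal iron reductase, came next with 50.9 ± 7.61 (SD, n = 5). *Aco1* (35.9 ± 3.65) and *Ireb2* (32.8 ± 2.28), the iron regulatory proteins, overlapped with each other. *Slc11a2*, the divalent metal transporter, had 21.4 ± 3.54 TPM (SD, n = 5). The lowest members were *Tfrc*, the transferrin receptor, with 7.53 ± 2.14, and *Slc40a1*, the iron exporter ferroportin, with 1.69 ± 0.391 TPM (SD, n = 5). *Steap3*, from 38.5, also overlapped with *Aco1*, up to 41.9, and the other neighbours in this order did not overlap in control libraries.

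**Figure D1:**
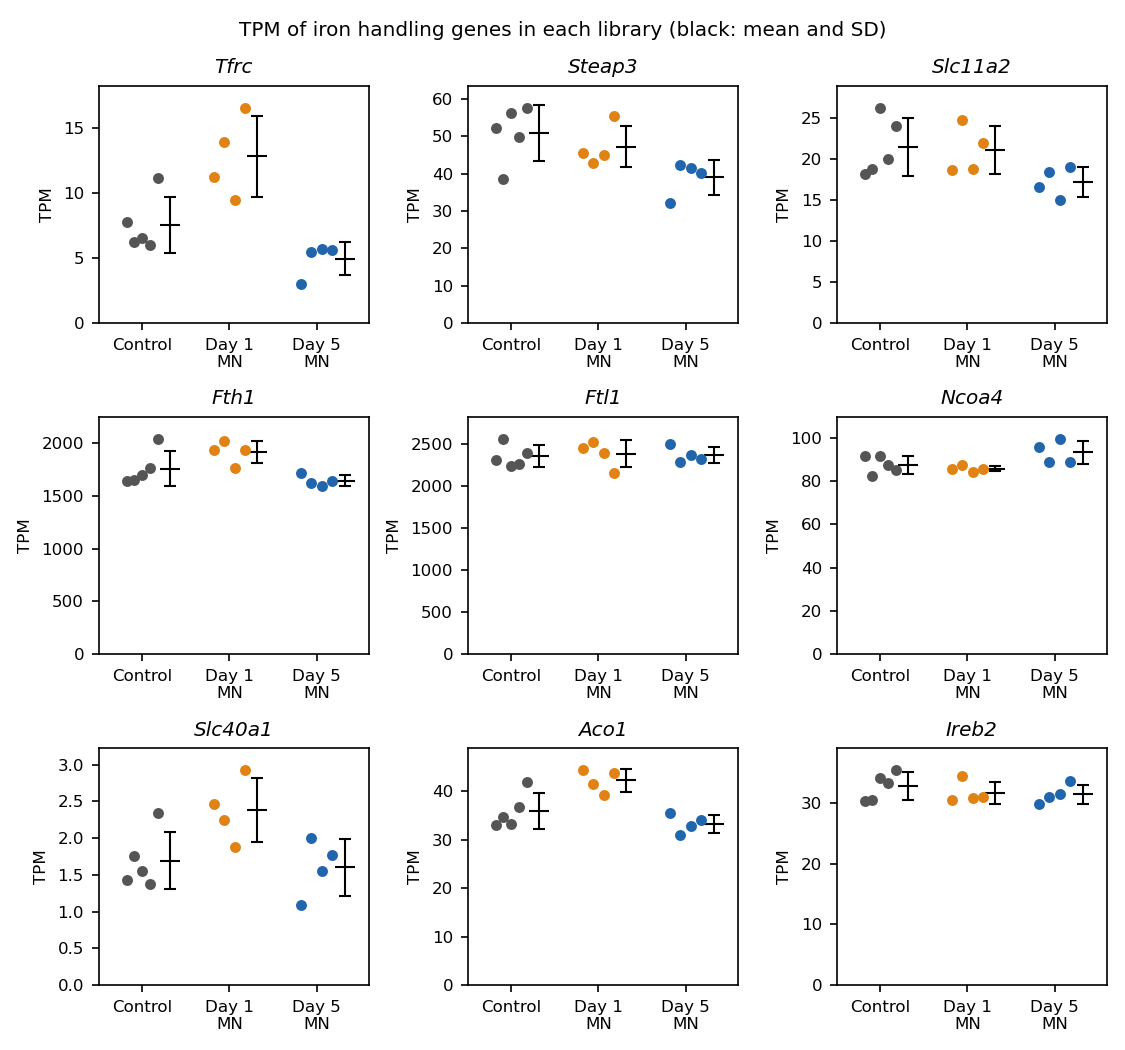
TPM (vertical axis, from 0) of each iron handling gene in control, day 1 MN and day 5 MN libraries, 1 point per library, with mean and SD in black. *Tfrc* at day 1 lies between 9.48 and 16.5 and at day 5 between 3.03 and 5.71, whereas *Ftl1* stays between 2156 and 2563 in all 13 libraries.

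Glomerular markers were abundant in every library. Summed TPM of 10 podocyte markers lay between 7772 and 10493, and those of 10 endothelial markers between 8847 and 13698. Tubule RNA was also present, at a level that varied between libraries. The summed TPM of 22 proximal tubule markers was 3973 to 11768 in control, 6360 to 10264 at day 1 and 4496 to 5301 at day 5. Most of this sum came from *Kap* (1945 to 7313, 3355 to 6447 and 2472 to 2943) and *Cyp4b1* (771 to 1073, 881 to 1023 and 571 to 673). For 14 markers of the loop, distal tubule and collecting duct the summed TPM was 348 to 690, 685 to 1207 and 476 to 651. None of these markers was at 0 in every library. A tubular marker score was computed to set beside the results, the mean over 35 tubule genes of a gene's log2 value relative to its own mean over the 13 libraries. It averaged -0.20 in control (SD 0.52, n = 5), 0.52 on day 1 (SD 0.26, n = 4) and -0.27 on day 5 (SD 0.087, n = 4). Control replicate 5 stood apart from the other control libraries with a score of 0.57, against -0.79 to -0.0045. The day 1 score exceeded control by 0.72 (exact two-sided permutation test, p = 0.0476, where the smallest p that 5 against 4 libraries allow is 0.0159). The difference of day 5 from day 1 was -0.79 (exact two-sided permutation test, p = 0.0286, the smallest that 70 splits allow). Day 5 differed from control by -0.07 (exact two-sided permutation test, p = 0.825). The day 1 difference from control passed 0.05 in 5 of the 13 tests that each left out 1 library, and not with proximal markers only (exact permutation p = 0.0873). The 4 of these 13 tests that left out a day 5 library kept every library of the 2 groups compared.

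*Tfrc*, on chromosome 16 of GRCm39 from 32427556 to 32451612, had the largest differences of the members. Its TPM was 7.77, 6.18, 6.55, 5.99 and 11.1 in control replicates 1 to 5, 11.2, 13.9, 9.48 and 16.5 in day 1 replicates 1 to 4, and 3.03, 5.42, 5.71 and 5.62 in day 5 replicates 1 to 4. Every day 5 library was below every control and every day 1 library. Day 1 overlapped with control only through control replicate 5.

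Relative to day 1, *Tfrc* fell by 1.31 at day 5 on the log2(scaled TPM + 0.5) scale, on which every difference below is given (standard error, SE, 0.23; adjusted p = 0.00837 by limma, corrected over all tested genes by the Benjamini-Hochberg procedure). In TPM the day 1 mean was 2.59 times the day 5 mean. This was the only member called, which required an adjusted p under 0.05 together with a log2 difference beyond 0.5 in size. Of all tested genes, 1.81% were called in this comparison and 0.398% as lower. Leaving out each of the 13 libraries in turn never ended the call (-1.44 to -1.13, adjusted p 0.00276 to 0.0334, limma). With the tubular marker score in the model the difference was -0.82 (SE 0.27, adjusted p = 0.322, limma) and was no longer called. Day 1 scores (0.16 to 0.76) and day 5 scores (-0.36 to -0.18) did not overlap, so day and score cannot be told apart. The part of tubule RNA in this difference was not tested.

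Against control, neither day passed for *Tfrc*. The day 1 log2 difference was 0.78 (SE 0.22, adjusted p = 0.238, limma) and the day 5 log2 difference was -0.53 (SE 0.22, adjusted p = 0.202, limma). Both comparisons use the same 5 control libraries. Without control replicate 5, the day 1 log2 difference was 0.93 (SE 0.20, adjusted p = 0.0349, limma) and was called, and the day 5 value was -0.38 (adjusted p = 0.344, limma). With the tubular marker score in the model, day 1 stood at 0.33 (SE 0.25, adjusted p = 0.782) and day 5 at -0.49 (SE 0.19, adjusted p = 0.151) by limma.

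Within groups, the order of *Tfrc* matched that of the tubular marker score in part. Control replicate 5 had the highest score of the control libraries (0.57) and the most *Tfrc*, but control replicate 4, next by score (-0.0045), had the least *Tfrc* (5.99 TPM). At day 1, replicate 4 was highest in both (0.76 and 16.5 TPM) and replicate 3 lowest in both (0.16 and 9.48 TPM), whereas replicate 2 had more *Tfrc* than replicate 1 at a lower score. At day 5 the library with the least *Tfrc*, replicate 1, had a score of -0.32, near the lowest (-0.36 in replicate 2). All day 5 scores lay between -0.36 and -0.18. These orders are a description, and the part of tubule RNA in *Tfrc* was not tested by them. The fitted slope was 0.62 log2 units of *Tfrc* per log2 unit of the score (SE 0.24, adjusted p = 0.224, limma), which did not pass the threshold, and without control replicate 5 it was 0.38 (SE 0.37, adjusted p = 0.736, limma). Fewer cells of a type and less RNA per cell cannot be told apart in bulk glomeruli.

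**Figure D2:**
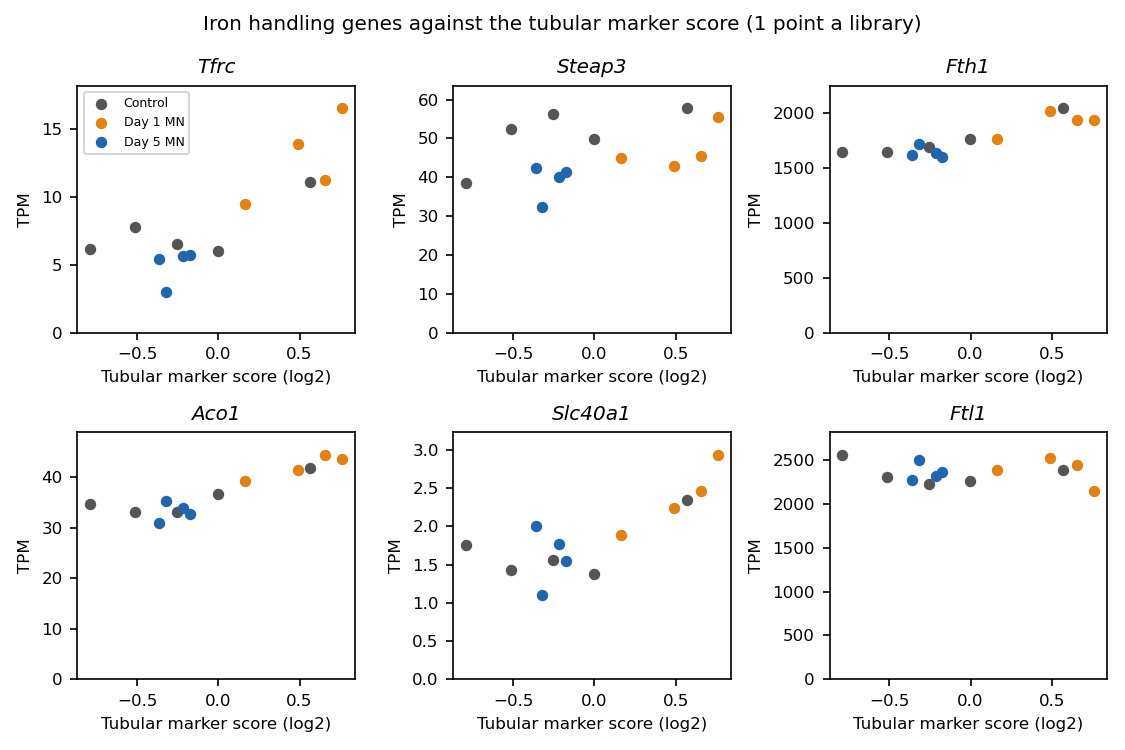
TPM of 6 iron handling genes (vertical axes, from 0) against the tubular marker score (horizontal axis, log2 units), 1 point per library, coloured by group. Day 1 MN libraries score 0.16 to 0.76 and day 5 MN libraries -0.36 to -0.18, and control replicate 5 lies among the day 1 libraries at 0.57.

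Proliferation markers also moved. At day 5, 11 of 12 proliferation markers were called as higher than in control (2.42% of all tested genes were), with a summed TPM of 314 to 408 against 130 to 162 in control and 124 to 163 at day 1. Their part in the level of *Tfrc* was not tested.

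By likeness over the 13 libraries, the tested genes closest to *Tfrc* were *Adh1* (Pearson's r = 0.92), *Slc38a3* (0.92), *Aadat* (0.90), *Faah* (0.90) and *Mthfd1* (0.90), given as a description. Their slopes on the tubular marker score were 1.12, 1.25, 0.80, 0.80 and 0.46 log2 units per unit. The adjusted p was under 0.05 for all of these but *Slc38a3* (adjusted p = 0.107, limma).

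Downstream of the receptor, *Steap3* on chromosome 1 (120118487 to 120200435) reduces ferric iron in the endosome. Its TPM was 52.3, 38.5, 56.2, 49.7 and 57.7 in control, 45.6, 43.0, 45.0 and 55.4 at day 1 and 32.2, 42.5, 41.4 and 40.1 at day 5. Control replicate 2 was the only control library in the day 5 range. The day 5 log2 difference was -0.34 against control (SE 0.12, adjusted p = 0.141, limma) and -0.28 against day 1 (adjusted p = 0.32, limma). Without control replicate 2 the adjusted p against control was 0.0177 (limma), still under the fold threshold at -0.44. With the tubular marker score, the value against control was close to this (-0.31, SE 0.098, adjusted p = 0.0815, limma), whereas the value against day 1 was 0.016. At day 1 its log2 difference was -0.05 without the score and -0.33 with it (adjusted p = 0.899 and 0.544, limma). *Slc11a2* on chromosome 15 (100285776 to 100322953), which carries iron out of the endosome, ranged from 18.1 to 26.3 TPM in control, from 18.7 to 24.8 at day 1 and from 15.02 to 19.0 at day 5. Its groups overlapped in every comparison, and its log2 differences were 0.02 at day 1, -0.26 at day 5 (SE 0.14, adjusted p = 0.302, limma) and -0.29 between the days. In the fit with the score these values of *Slc11a2* were -0.17, -0.25 and -0.08.

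The ferritin chains differed from each other in spread. *Fth1*, on chromosome 19 from 9957911 to 9962462, had TPM of 1644, 1650, 1696, 1765 and 2046 in control, 1939, 2022, 1769 and 1937 at day 1 and 1720, 1620, 1599 and 1638 at day 5. In deposited TPM every day 5 library was below every day 1 library, and control spanned both. After scaling, day 5 replicate 1 was above day 1 replicate 3. The log2 difference was 0.17 at day 1 (SE 0.084, adjusted p = 0.423, limma), -0.06 at day 5, and -0.23 between the days (SE 0.089, adjusted p = 0.223, limma). In the fit with the score the day 1 value turned to -0.02 and the value between the days to -0.02.

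*Ftl1*, on chromosome 7 from 45107367 to 45109308, had TPM of 2305, 2563, 2232, 2264 and 2395 in control, 2452, 2524, 2390 and 2156 at day 1 and 2500, 2279, 2365 and 2322 at day 5. No group stood apart. Its log2 differences were 0.06 at day 1, 0.04 at day 5 and -0.02 between the days, with SEs of 0.069 to 0.073. *Fth1* per *Ftl1* TPM was 0.75 ± 0.078 (SD, n = 5) in control, 0.808 ± 0.066 (SD, n = 4) on day 1 and 0.695 ± 0.016 (SD, n = 4) on day 5, and every day 1 library (at least 0.740) was above every day 5 library (at most 0.711). Across control this ratio rose with the tubular marker score, from 0.644 in replicate 2 (score -0.79) to 0.854 in replicate 5 (score 0.57). At day 5 the highest ratio, in replicate 2, came with the lowest score (-0.36). The ratio was not fitted with the score, and how often ratios of other gene pairs do not overlap was not computed. Annotated copies at 90% identity or more over at least 50% of the transcript could take reads from *Ftl1*. There were 11 of these genes, 7 were in the table, and together they held at most 3.36 TPM in a library.

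*Ncoa4*, on chromosome 14 from 31881822 to 31902234, is the cargo receptor that delivers ferritin to autophagosomes. It had TPM of 91.6, 82.3, 91.8, 87.3 and 85.4 in control, 85.6, 87.5, 84.5 and 85.7 at day 1 and 95.7, 89.1, 99.8 and 88.8 at day 5. In deposited TPM all day 5 libraries were above all day 1 libraries, and the margin was 1.09-fold between the means. After scaling, day 5 replicate 4 was below day 1 replicate 2. The log2 differences were 0.12 at day 5 against control (SE 0.053, adjusted p = 0.211, limma) and 0.11 between the days (adjusted p = 0.377, limma). *Ncoa4* was the only member whose value between the days was above 0, and with the score it stood at 0.13 against control at day 5 and 0.15 between the days.

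*Slc40a1*, on chromosome 1 from 45947211 to 45965683, had TPM of 1.43, 1.76, 1.55, 1.38 and 2.34 in control, 2.47, 2.24, 1.88 and 2.93 at day 1 and 1.09, 2.00, 1.55 and 1.77 at day 5. The day 1 and control libraries overlapped only through control replicate 5, as for *Tfrc*. Its log2 difference was 0.43 at day 1 (SE 0.19, adjusted p = 0.388, limma), -0.04 at day 5 and -0.47 between the days (SE 0.21, adjusted p = 0.288, limma). In the fit with the score the day 1 value was 0.16 and the value between the days -0.17.

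The iron regulatory proteins are paralogs. *Aco1*, on chromosome 4 from 40142998 to 40199010, encodes the cytosolic aconitase that becomes an RNA-binding protein when it loses its iron-sulphur cluster. Its TPM was 33.1, 34.7, 33.2, 36.6 and 41.9 in control, 44.4, 41.4, 39.3 and 43.6 at day 1 and 35.4, 30.9, 32.7 and 34.0 at day 5. All day 1 libraries were above all day 5 libraries and above the control libraries other than replicate 5. The log2 difference was 0.28 at day 1 (SE 0.086, adjusted p = 0.249, limma), -0.07 at day 5 and -0.35 between the days (SE 0.091, adjusted p = 0.0658, limma). Without control replicate 5 the adjusted p was 0.0277 at day 1 and 0.0152 between the days (limma), both under the fold change threshold at 0.35 and -0.35. In the fit with the score the values were 0.08 and -0.13.

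*Ireb2*, on chromosome 9 from 54770970 to 54820011, encodes the paralog that is controlled by degradation. Its TPM was 30.4 to 35.6 in control, 30.5 to 34.5 at day 1 and 29.9 to 33.6 at day 5, and its log2 differences were -0.0025 at day 1, -0.02 at day 5 and -0.02 between the days. With the score those of *Ireb2* were -0.14, -0.01 and 0.13. *Aco1* per *Ireb2* TPM was 1.09 ± 0.078 (SD, n = 5) in control, 1.33 ± 0.117 (SD, n = 4) on day 1 and 1.06 ± 0.086 (SD, n = 4) on day 5. The lowest day 1 ratio (1.20) was only just above the highest of the other groups (1.18). Among control libraries, replicate 5 had the highest ratio (1.179). How often ratios of other gene pairs do not overlap was not computed, and this ratio was not fitted with the score.

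Across the members, 0 of 9 were called at day 1 against control and 0 of 9 at day 5 by limma, where 0.0908% and 3.21% of all tested genes were. An unadjusted p under 0.05 was found for 3 members at each day, beside 12.6% of all tested genes at day 1 and 20.1% at day 5. Between the days 1 of 9 was called (1.81% of all genes), and 5 of 9 had an unadjusted p under 0.05, beside 15.5% of all tested genes. TPM of the groups did not overlap for 0 members at day 1, for *Tfrc* at day 5, and for *Tfrc*, *Steap3*, *Fth1*, *Ncoa4* and *Aco1* between the days. Of all tested genes, 4.22%, 10.8% (5.71% lower) and 11.0% did not overlap in these comparisons. Overlap was judged on deposited TPM, and on scaled TPM *Fth1* and *Ncoa4* did overlap between the days. The median log2 difference of the members was 0.06 at day 1, -0.06 at day 5 and -0.28 between the days, beside -0.0029, -0.0032 and 0.0049 for all tested genes. In the fit with the score in the model 0 members were called in any of the 3 comparisons (limma). Of the 9 slopes on the score, 0 had an adjusted p under 0.05 (limma), which 3.60% of all genes had. Positive slopes of this kind made up 3.20% of all genes. The slopes of *Fth1* (0.27, adjusted p = 0.102), *Aco1* (0.28, adjusted p = 0.106) and *Steap3* (0.38, adjusted p = 0.151) had the lowest p-values (limma). Single libraries moved each of these: without control replicate 5 the slope was 0.16 for *Fth1* and 0.17 for *Aco1* (adjusted p = 0.651 and 0.635, limma), and without control replicate 2 it was 0.21 for *Steap3* (adjusted p = 0.729, limma). *Ftl1* alone had a slope below 0 (-0.02). Day 1 and day 5 scores did not overlap, and the part of tubule RNA in these differences was not tested.

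**Figure D3:**
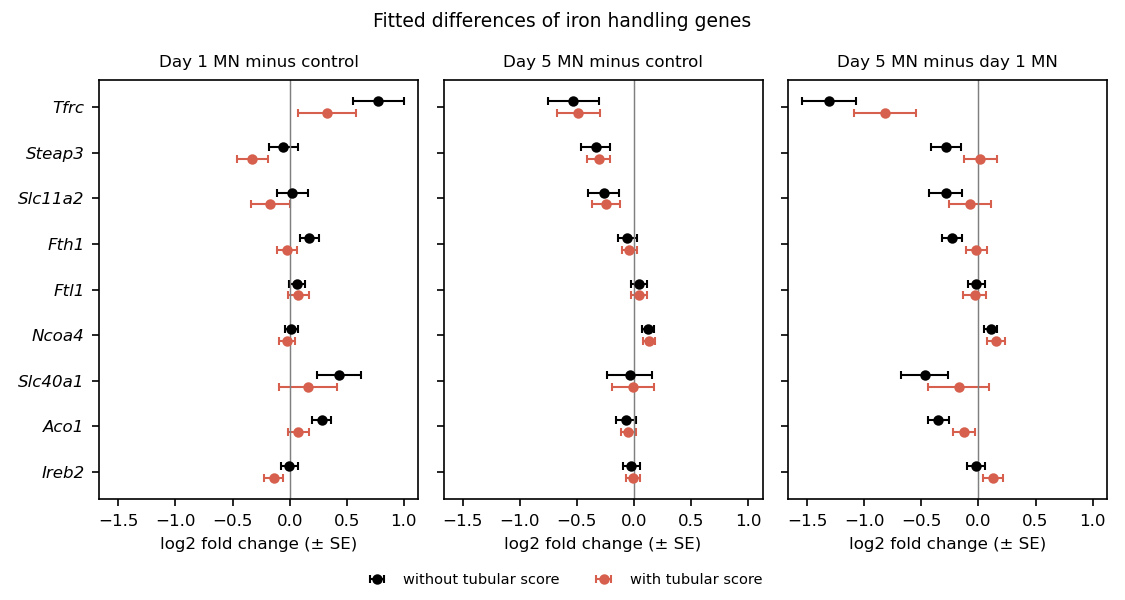
Log2 fold change with its standard error (horizontal axis) for each iron handling gene in 3 comparisons, from limma fits without (black) and with (red) the tubular marker score. *Tfrc* between the days moves from -1.31 to -0.82 and *Steap3* from -0.28 to 0.016, whereas the day 5 values against control change little.

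A wider list of 84 other iron genes was read in the same fits, and 70 passed the filter on low TPM. The 14 that did not include *Tf*, *Hamp* and *Lcn2*, which encode transferrin, hepcidin and the siderophore carrier lipocalin. In this list 0 of 70 genes were called in each of the 3 comparisons by limma, and 11, 10 and 14 had an unadjusted p under 0.05 at day 1, at day 5 and between the days. These are 15.7%, 14.3% and 20% of the list, beside 12.6%, 20.1% and 15.5% of all tested genes. The median log2 difference was 0.05 at day 1 (47 above 0 and 23 below), 0.0091 at day 5 (40 and 30) and -0.06 between the days (27 and 43).

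Genes of mitochondrial iron import and iron-sulphur cluster assembly were the largest role group, with 30 tested. At day 1, 24 were above 0 with a median of 0.11, and between the days 23 were below 0 with a median of -0.13. At day 5 their median was 0.0024. With the tubular score in the model the medians were 0.04 at day 1 and -0.02 between the days. *Mms19*, which hands clusters to DNA enzymes, had 27.3 ± 1.34 TPM in control (SD, n = 5), 31.7 ± 4.46 on day 1 and 24.7 ± 3.22 on day 5 (SD, n = 4 each), a value of -0.36 between the days (SE 0.11, adjusted p = 0.117, limma), and of -0.28 with the score.

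Of the heme genes, *Ppox*, an enzyme of heme synthesis, passed on its adjusted p at day 5 but not on its fold change (-0.37, SE 0.072, adjusted p = 0.00745, limma). Its TPM was 29.2 to 37.6 in control, 26.9 to 31.6 at day 1 and 23.4 to 26.9 at day 5, so that no day 5 library reached the control range, and with the score its day 5 value was -0.38 (adjusted p = 0.00552, limma). *Slc48a1*, which exports heme from endosomes and lysosomes, was the other gene of the list with an adjusted p under 0.05 at day 5 (0.24, SE 0.059, adjusted p = 0.0248, limma), a share of 2 of 70 beside 6.12% of all tested genes. Its TPM was 225 to 254 in control, 237 to 260 at day 1 and 266 to 291 at day 5, and its day 5 value with the score was 0.24 (adjusted p = 0.0282, limma). *Slc46a1*, a folate and heme transporter, had the largest value at day 1 (0.67, SE 0.20, adjusted p = 0.246, limma) and between the days (-0.53, adjusted p = 0.246, limma). With the score in the model the values of *Slc46a1* were 0.27 and -0.09. *Hpx*, the heme scavenger hemopexin, had 0.76 to 2.15 TPM in control and 0.241 to 0.83 at day 5. Its day 5 value was -0.59 (SE 0.29, adjusted p = 0.272, limma), and -0.60 with the score. *Hpx* passed the filter only through control and day 1 libraries, so its lower day 5 value is a description. Apart from control replicate 3 (2.15 TPM), control libraries had at most 1.05. *Tfr2*, the second transferrin receptor, had at most 2.02 TPM in any library and a day 1 value of 0.45 (adjusted p = 0.618, limma), or 0.76 with the score.

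**Figure D4:**
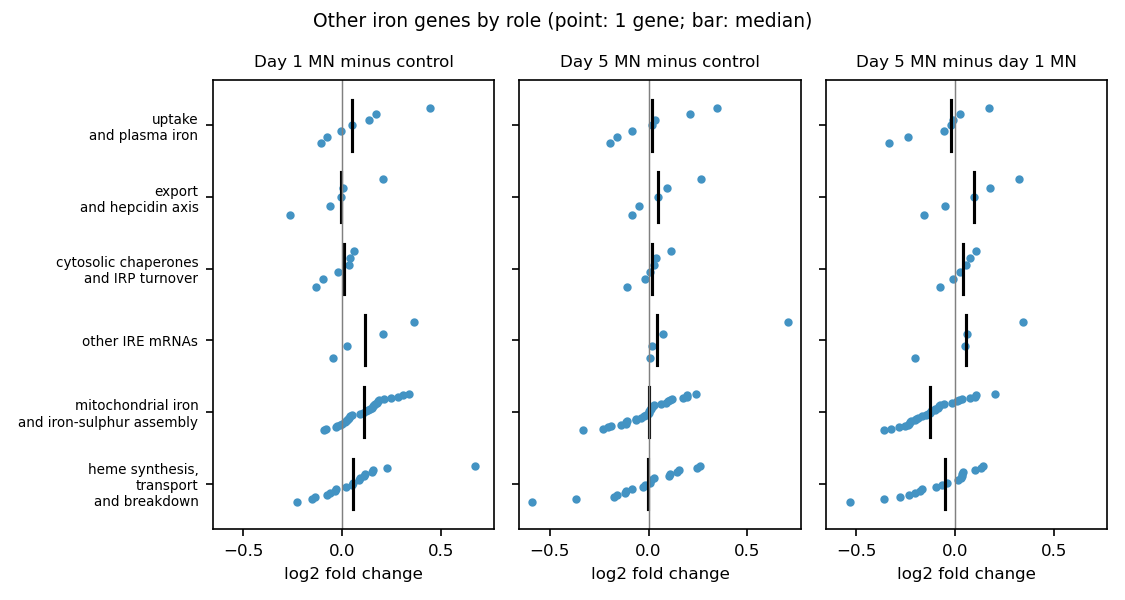
Log2 fold change (horizontal axis) of the 70 other iron genes that passed the filter, 1 point per gene and 1 row per role, with the median of each role as a black bar, in 3 comparisons. Genes of mitochondrial iron and iron-sulphur assembly have medians of 0.11 at day 1, 0.0024 at day 5 and -0.13 between the days.

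An IRE match was also found in the 5′ UTR of *Alas2*, the erythroid enzyme that starts heme synthesis, on the plus strand.

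*Alas2*, chrX:149330460-149330476: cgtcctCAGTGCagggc

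The day 1 value of *Alas2* was 0.36 (SE 0.35, adjusted p = 0.704, limma), and -0.33 with the score (adjusted p = 0.885, limma). Of the 70 other iron genes, 6 had a slope on the tubular marker score with an adjusted p under 0.05 (limma), 5 positive and 1 negative. *Cisd1*, *Alas1*, *Steap2* and *Hspa9* were among the positive ones, and *Lrp1* was negative.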

How the data were processed

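The authors trimmed reads with Trimmomatic 0.39, quantified them with kallisto 0.46.2 against GRCm39 (Ensembl annotation) and deposited TPM, 1 value per gene symbol and library. TPM is rescaled to a fixed total, so depth is unknown and no counting error is given. The authors tested counts with DESeq2, which were not used here. Scaling factors by the median-of-ratios method (0.955 to 1.04) came from the 15772 genes detected in all libraries, and values were log2(scaled TPM + 0.5). The test, for genes reaching 1 TPM in 4 or more libraries, was limma 3.58.1 (R 4.3.3, trended eBayes, all 3 groups in 1 fit). p-values were adjusted by Benjamini-Hochberg over the 14322 genes. Calls required an adjusted p under 0.05 and a log2 difference beyond 0.5 in size. Slopes came from a fit with the tubular marker score beside the groups. Printed TPM are the deposited values. Loci and UTRs came from GENCODE on GRCm39, and copies of *Ftl1* from BLAST+ 2.17.0. Plots used matplotlib 3.10.9. The members, the lists and the tests were chosen with earlier results of these data known. The rule for other iron genes named those called and the 3 largest values in each comparison. *Slc48a1* and the genes named for their slope or for failing the filter were named after their values were seen. Replicates are separate mice. The fitting procedure was tested on simulated data. Some items are not reported here.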

Additional observations from a re-analysis of the deposited data

Results flagged for a closer look

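In 30 sets of libraries (9 genes and the tubular marker score in 3 groups), 2 libraries lay far from the rest of their group by Dixon's criterion, and chance gives about 1 in 20 sets. Day 5 replicate 1 had a *Tfrc* TPM of 3.03 against 5.42 to 5.71 in the other day 5 libraries. Day 1 replicate 2 had an *Ireb2* TPM of 34.5 against 30.5 to 31.1 in the other day 1 libraries. *Tfrc* differed by -1.31 between the day 5 and day 1 libraries (limma, the comparison between the days given above, not called with the tubular marker score). Without day 5 replicate 1 this difference was -1.13 and still passed (adjusted p = 0.0296, limma).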

How the results depend on the processing

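Of 972 values of single members under alternatives, 964 stayed on their side of the threshold without turning, among them 46 whose sign changed while the value was under 1 standard error, and 3 turned. With the tubular marker score the day 1 value of *Fth1* was -0.0227 and the value of *Steap3* between the days 0.0157, and with the distal marker score the latter was 0.072. No *Tfrc* call between the days remained (0 members called) with the tubular (-0.82), proximal (-0.91, adjusted p = 0.151, limma) or distal score (-0.85, adjusted p = 0.507, limma). With quantile normalization 1 member, *Fth1*, passed on its slope (0.24, adjusted p = 0.0359, limma). Summing *Ftl1* and *Fth1* with their copies, by symbol or (chosen after seeing the data) by BLAST, changed no call.

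Leaving out 1 library gave 0 to 1 members called at day 1, the 1 being *Tfrc* without control replicate 5. Over all genes, 13 were called at day 1. The count was 6 without the filter, 7 without the trend, 2 with the 2 compared groups only, 0 with the tubular, proximal or distal score, 149 with the replicate block, and 3 to 218 when 1 library was left out, the highest without control replicate 5. At day 5, 460 genes were called, 876 on the adjusted p alone, where 2 other iron genes passed. Between the days 259 genes were called, 153 when every library had to reach 1 TPM, 414 with the 2 groups only, 119, 143 and 76 with the tubular, proximal and distal scores, and 150 to 437 when 1 library was left out. The replicate block, like the fit that gave the highest count at day 1, takes control replicate 5 out of the comparisons. Beyond this, the cause of these shifts was not tested.

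The tubular score difference at day 1 was 0.702 with proximal markers only (exact permutation p = 0.0873) and 0.57 to 0.91 with 1 library left out (exact permutation p = 0.0286 to 0.107). Between the days it was -0.904 to -0.706 (exact permutation p = 0.0286 to 0.0571, where 3 against 4 libraries allow no p under 0.05). At day 5 against control it was -0.218 to 0.122 and turned without control replicate 5.

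Replicate numbers name different mice, and deviations of libraries with the same number from their group means had r between -0.056 and 0.091. With the replicate block, *Tfrc* between the days stayed called (-1.31, adjusted p = 0.0126, limma) and no other member changed its call. Number 5 occurs only in control, so the block also takes control replicate 5 out of the comparisons. The day 1 log2 difference of *Tfrc* from control was 0.93 with the block and 0.93 without that library. The block is therefore not a check apart from leaving that library out. TPM carry no depth, so the error of a value rests on the mice alone.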

Other observations

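*Alas2* and the globins mark red cells. *Alas2* had 0.59 to 2.39 TPM in control, 1.01 to 2.12 at day 1 and 1.39 to 3.38 at day 5 (log2 fold change 0.71 at day 5, standard error 0.35, adjusted p = 0.285, limma). The summed TPM of the erythroid markers was 207 to 470 in control, 91.4 to 281 at day 1 and 204 to 472 at day 5. Of the 10 listed, 4 passed the filter, all of them globins, with medians of -0.84 at day 1 and 1.11 between the days and 0 called (limma, with 2 and 3 at an unadjusted p under 0.05). The part of red cell RNA in the level of *Tfrc* was not tested.

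Macrophages recycle iron through *Slc40a1*. Their 12 markers summed to 86.6 to 138 TPM in control, 111 to 142 at day 1 and 116 to 161 at day 5. *Mrc1* alone held 49.4 to 87.6 TPM over the 13 libraries, whereas *Adgre1* had at most 1.60. Of 11 markers tested, 8 were above 0 at day 1 and 11 at day 5, with a median of 0.40 at day 5. By limma 0 were called (0 and 3 at an unadjusted p under 0.05). The part of macrophage RNA in the level of *Slc40a1* was not tested.

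The summed TPM of the 13 genes of the mitochondrial genome was 54915 to 73222 in control, 68125 to 83848 at day 1 and 62210 to 68600 at day 5. Its part in other results was not tested.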
